A study of Mus musculus with 43 samples.

Results

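Transcripts of 10 genes of EGF family signaling were followed in PD798, a line grown out of pancreatic ductal carcinoma in the KPCY mouse model. They comprise the ligands amphiregulin (Areg), epiregulin (Ereg), HB-EGF (Hbegf) and TGF-alpha (Tgfa), the receptors Egfr, Erbb2 and Erbb3, and the membrane proteases Adam8, Adam10 and Adam17. The genes were taken by symbol, and all 10 were found among the 13845 genes of the processing table and the 13817 genes of the input table. All 10 also had at least 1 TPM, a transcript level scaled by gene length and by the library total, in at least 3 libraries of each table, the filter that left 12159 and 12325 genes for testing. The members were selected on their TPM values in these same tables, with earlier results known, so the tests below come from fits across all genes and describe these genes without adding independent support.

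The study asked whether enrichment and sorting of rare tumor cells alter their expression profile, and whether few sorted cells give a usable one. The KPCY mouse carries Pdx1-cre, p53 L/+ and Rosa YFP/YFP among its alleles, so that Cre is driven by the pancreatic Pdx1 promoter and every library derives from this 1 tumor line grown in medium with serum. In the processing experiment, 3 bulk RNA libraries came from each condition. Pre-FACS cells were banked before sorting, and Mock cells were held in staining buffer on the bench. FACS-only cells were sorted on the BD Influx alone. Pre-enriched cells passed through magnetic depletion and acoustic washing before the sorter. The paper describes magnetic particles and RBC lysis buffer for the Pre-enriched cells, and FACS-only as the same sample sorted without pre-enrichment. Against Mock or Pre-FACS, sorting therefore cannot be told apart from exposure to particles and lysis buffer. In the input series, cells spiked into normal mouse blood were pre-enriched and sorted as 11 single cells, 12 pools of 10 cells and 6 pools of 100 cells, and 2 libraries were made from RNA of the bulk cell line. Sorted cells entered cDNA synthesis as lysate whereas bulk RNA was extracted with a column kit, so number of cells and preparation cannot be told apart. The labels put the bulk libraries and the processing libraries under the same spiking into blood, which the methods do not describe for them. No label names separate cultures, so p-values measure only the spread between these libraries, which may be technical.

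EGF family ligands are made as membrane proteins and are set free by metalloproteases, chiefly ADAM17 and ADAM10. Released ligand binds EGFR, which pairs with itself or with ERBB2 or ERBB3 and signals through RAS-MAPK and PI3K-AKT. In the pancreas this signaling is known for its part in the change of acinar cells to duct-like cells and in ductal tumors. ERBB2 has no known ligand of its own, ERBB3 has a weak kinase and acts through its partners, and ADAM8 is a related protease of leukocytes and of pancreatic tumor cells. RNA levels measure neither shedding nor receptor activity.

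The label of a ductal carcinoma was checked with 10 epithelial markers such as Epcam, Krt8 and Krt19. Their summed level lay between 24895 and 28436 TPM in the processing libraries. It lay between 7909 and 33020 TPM in the pools and between 3463 and 30895 TPM in the single cells. Of 15 leukocyte markers the processing table held 2, of which Cd14, a gene also found in epithelial cells, made up nearly all of the sum (293 to 347 TPM) and Ptprc, the pan-leukocyte marker, stayed at or below 0.689 TPM. In the input series the 5 tabulated leukocyte markers summed to 0.158 to 285 TPM, and Ptprc was not among its genes. In bulk RNA this sum was 170 to 199 TPM, with Cd14 at 124 to 138 and S100a8 at 37.4 to 51.0 TPM. Libraries sorted from blood ranged more widely, with S100a8 at 0.0 to 51.4 TPM in 10-cell pools and 26.8 to 128 TPM in 100-cell pools. S100a9 was at 0.0 to 88.0 TPM in 10-cell pools, against 8.45 to 9.93 TPM in bulk RNA. The 3 erythroid and platelet markers reached 278 TPM in 1 single cell, nearly all of it Alas2, which reached 83.3 TPM in 10-cell pools. Of 8 fibroblast markers the processing table held 2, with a sum of at most 1.81 TPM, and the input table held 0. Of 5 acinar markers the tables held 2 and 1. The 2 summed to 9.98 to 18.5 TPM in the processing libraries, most of it Cela1 at 8.70 to 16.1 TPM. Cela1, the 1 in the input series, reached at most 2.20 TPM.

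Promoters of Areg and Adam8, the members that passed a test among the 4 conditions, are shown because they differ in their core elements. Of the 10 genes, 7 had a promoter in the RefSeq table of build GRCm38.p6 (not Ereg, Hbegf or Erbb3), each reaching from 250 bases before to 50 after the start of transcription. The 250 bases before the start are printed 5′ to 3′ on the strand of the gene. They lie at chr5:91139349-91139598 on the plus strand for Areg and at chr7:139992563-139992812 on the minus strand for Adam8. Capitals mark a cyclic AMP response element (TGACGTCA) and a TATA box (TATAAA) in Areg, and CCAAT boxes and a GC box (GGGCGG), all on the opposite strand, in Adam8.
Areg: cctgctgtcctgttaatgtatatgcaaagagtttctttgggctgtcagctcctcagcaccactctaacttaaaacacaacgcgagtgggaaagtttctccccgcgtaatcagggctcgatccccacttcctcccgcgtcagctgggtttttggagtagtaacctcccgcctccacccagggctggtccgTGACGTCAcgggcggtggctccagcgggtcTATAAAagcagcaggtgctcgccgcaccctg
Adam8: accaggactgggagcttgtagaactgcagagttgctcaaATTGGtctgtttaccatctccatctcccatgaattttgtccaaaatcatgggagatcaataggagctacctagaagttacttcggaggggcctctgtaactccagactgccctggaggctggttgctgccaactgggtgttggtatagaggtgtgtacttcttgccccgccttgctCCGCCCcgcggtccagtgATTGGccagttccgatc

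Both strands of each window of 300 bases were searched. In Areg the response element spanned positions -61 to -54 from the start and the TATA box -31 to -26, with a GC box at -52 to -47 between them. A response element of this spelling was in 1.79% and a TATA box in 13.6% of 32851 promoters. Among the other 6 members with a promoter neither was found. The AP-1 motif TGANTCA, held by 7.81% of promoters, was in none of the 7. In Adam8 the CCAAT box nearest the start lay at -17 to -13 and the GC box at -35 to -30. These boxes are common, with CCAAT in 37.4% and GGGCGG in 35.7% of promoters. A match is a run of letters and says nothing of binding in these cells.

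The genes lie on 8 chromosomes of mm10. Ereg (chr5:91074622-91093646) and Areg (chr5:91139599-91148432) are neighbors on the plus strand of chromosome 5 with 45952 bases between them. Egfr (chr11:16752203-16918158) and Erbb2 (chr11:98412470-98437716) share chromosome 11. Tgfa is on chromosome 6, Adam8 on 7, Adam10 on 9, Erbb3 on 10, Adam17 on 12 and Hbegf on 18. All 10 are protein coding, and their merged exons range from 1215 bases in Areg to 11326 in Egfr.

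In the processing experiment the ligands differed most in level. TPM is scaled by gene length, so genes were ranked by it within a library. In the input series differences between preparations still moved with gene length. Whether the rankings below carry such an effect was not tested. Hbegf was the highest of the 4 ligands in all 12 libraries, with a median of 211 TPM and a range from 156 to 265. Areg (median 68.1 TPM) and Tgfa (67.4) followed at levels that overlapped, and Ereg was lowest. Of the receptors Erbb2 was highest, with 53.7 to 65.8 TPM, and Egfr was the lowest member of the list, with 7.18 to 11.4 TPM. Of the proteases Adam10 was highest, between 168 and 196 TPM.

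Areg, the ligand amphiregulin, was lowest in cells banked before sorting. Its level was 60.1, 55.6 and 57.0 TPM in Pre-FACS replicates 1 to 3, and 79.0, 80.9 and 72.8 TPM in FACS-only cells. In Mock cells it was 73.8, 66.6 and 72.5 TPM, and in Pre-enriched cells 69.7, 65.1 and 65.3 TPM. All 9 libraries of handled cells thus lay above the 3 Pre-FACS libraries, and Mock and Pre-enriched values overlapped. Among all tested genes 0.716% had such a separation with Pre-FACS below the other 3 conditions, and Areg was the only member with it. The reverse, with Pre-FACS above the other 3, was seen in 0.773% of genes and in 0 members. Between FACS-only and Pre-FACS the means stood at a ratio of 1.35, and the difference was 0.42 ± 0.07 (SE) on the log2(TPM + 1) scale. Its adjusted p was 0.0296 (limma, Benjamini-Hochberg over all genes), which made it the only member called in this comparison, where 0.123% of genes were called (0.0987% higher and 0.0247% lower in FACS-only cells). Against Pre-FACS the log2 difference was 0.30 ± 0.07 in Mock (adjusted p = 0.627) and 0.21 ± 0.07 in Pre-enriched cells (0.361), and neither passed. In the test over all 4 conditions the adjusted p of Areg was 0.127. The call between FACS-only and Pre-FACS was lost when FACS-only replicate 1 or 2 or Pre-FACS replicate 2 or 3 was left out, with adjusted p up to 0.225. It was also lost without the mean-variance trend (0.116) and with only the libraries of these 2 conditions (0.0938).

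Hbegf, a ligand that also binds heparin, followed a like order. Pre-FACS libraries had 186, 156 and 194 TPM, and FACS-only libraries 232, 249.4 and 265 TPM. Mock libraries had 210, 193 and 246 TPM, and Pre-enriched libraries 211, 207 and 245 TPM. FACS-only values lay wholly above Pre-FACS, while Mock overlapped both. The log2 difference of FACS-only from Pre-FACS was 0.48 ± 0.10, with an adjusted p of 0.0639 that missed the threshold in the unpaired fit. With the replicate number as a block its adjusted p was 0.000496. It passed (0.0375) when Mock replicate 3 was left out of the estimate of the spread, as did Adam8 (0.0479).

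Ereg, the neighbor of Areg on chromosome 5, had 20.4, 18.4 and 18.8 TPM in Pre-FACS cells. It had 25.7, 21.9 and 25.8 TPM in Mock, 24.8, 23.0 and 22.4 TPM in FACS-only and 21.3, 20.0 and 24.1 TPM in Pre-enriched cells. Pre-FACS lay below Mock and FACS-only and overlapped Pre-enriched cells. The log2 difference from Pre-FACS was 0.33 ± 0.11 in Mock and 0.27 ± 0.11 in FACS-only cells, with adjusted p of 0.997 and 0.591.

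Tgfa, the ligand first described from transformed cells, had no such order. It ranged from 68.0 to 74.6 TPM in Pre-FACS and from 59.3 to 70.6 TPM in FACS-only cells, which overlapped. Its log2 difference from Pre-FACS was negative in all 3 other conditions, between -0.16 and -0.07, with adjusted p of 0.638 or more.

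**Figure D1:**
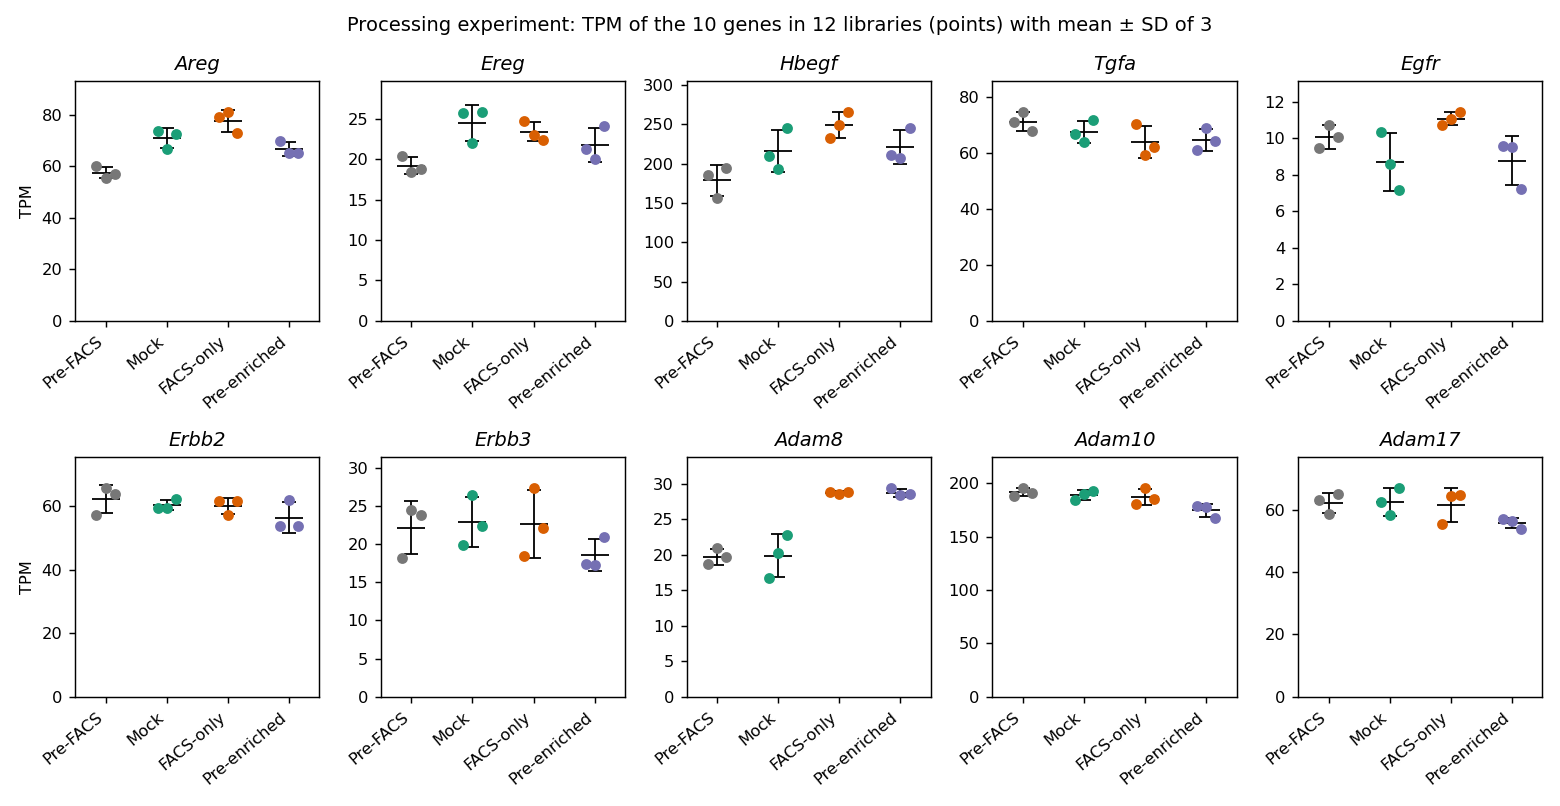
Levels of the 10 genes in TPM (vertical axes from 0) in the 12 libraries of the processing experiment, with 1 panel per gene, 1 point per library and the mean ± SD of 3 libraries as bars. Areg is lowest in the 3 Pre-FACS libraries, and Adam8 lies between 28.4 and 29.4 TPM in the 6 sorted libraries against 16.7 to 22.8 TPM in the 6 others.

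The receptors did not pass any comparison of conditions. Egfr, which binds all 4 ligands, had 10.7, 11.1 and 11.4 TPM in FACS-only cells and 7.22 to 9.60 TPM in Pre-enriched cells. These values did not overlap, as for 7.41% of genes with FACS-only above Pre-enriched cells, and the log2 difference of -0.31 ± 0.15 had an adjusted p of 0.743. Mock cells, at 10.3, 8.59 and 7.18 TPM, also lay below FACS-only cells, as for 5.11% of genes, with a difference of 0.33 ± 0.15 and an adjusted p of 0.875. Erbb2 stayed between 57.3 and 65.8 TPM in Pre-FACS cells and between 53.7 and 62.1 TPM in Pre-enriched cells. Erbb3 ranged from 18.2 to 24.5 TPM in Pre-FACS and from 17.3 to 20.9 TPM in Pre-enriched cells, with a log2 difference of -0.24 ± 0.15 and an adjusted p of 0.677. Summed over the receptors, the levels were 94.6 ± 8.51 TPM (SD, n = 3) in Pre-FACS and 83.8 ± 4.47 TPM in Pre-enriched cells.

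Adam8 was the member that separated sorted from unsorted cells. Its level was 28.8, 28.5 and 28.9 TPM in FACS-only and 29.4, 28.4 and 28.5 TPM in Pre-enriched replicates 1 to 3. In Mock it was 16.7, 20.3 and 22.8 TPM and in Pre-FACS cells 18.7, 20.9 and 19.6 TPM. All 6 sorted libraries thus lay above all 6 unsorted ones, a pattern that 0.354% of genes had and that no other member shared. The reverse order was found in 0.37% of genes and in 0 members. By the paper's description the sorted cells had also met magnetic particles and lysis buffer. Sorting and this exposure cannot be told apart in the Adam8 difference. The means stood at a ratio of 1.46 for FACS-only against Pre-FACS, and at 1.45 for Pre-enriched against Mock. In the test over all 4 conditions Adam8 had an adjusted p of 0.0451 (limma F test), the only member among the 0.107% of genes called. No pair of conditions passed for it: the log2 difference from Pre-FACS was 0.52 ± 0.11 in FACS-only (adjusted p = 0.0776) and 0.52 ± 0.11 in Pre-enriched cells (0.107). From Mock it was 0.52 ± 0.11 for both, with adjusted p of 0.664 and 0.233. Between Mock and Pre-FACS the log2 difference was 0.00 ± 0.11. Its call over the 4 conditions rested on the whole set of libraries, since it was kept only without Mock replicate 3 (adjusted p = 0.0345) and lost without each of the other 11 libraries, with adjusted p up to 0.164. It was lost as well without a filter (0.0809), after quantile normalization (0.0622) and without the trend (0.143).

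Adam10, the protease that sheds many membrane proteins, was lowest after pre-enrichment. It had 179, 178 and 168 TPM in Pre-enriched cells and 181 to 196 TPM in the other 9 libraries. The 3 Pre-enriched libraries lay below all others, as they did for 1.35% of genes. The log2 difference from Pre-FACS was only -0.13 ± 0.05 and had an adjusted p of 0.458. Adam17, the main sheddase of Areg, Hbegf and Tgfa, had 56.9, 56.4 and 53.7 TPM in Pre-enriched cells and 55.3 to 66.9 TPM elsewhere, so the groups overlapped.

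**Figure D2:**
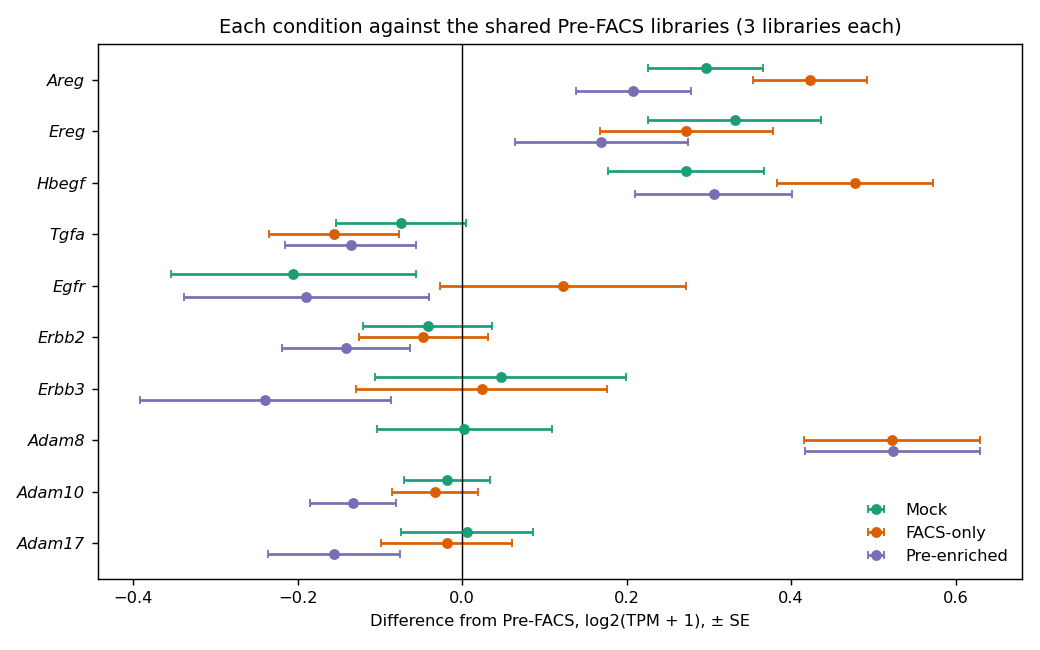
Difference of Mock, FACS-only and Pre-enriched cells from Pre-FACS for each gene (horizontal axis, log2(TPM + 1), points with SE from limma); the 3 comparisons share the Pre-FACS libraries. Areg, Ereg and Hbegf lie right of 0 in all 3 conditions and Adam8 in the sorted ones only, at 0.52, with 0.00 in Mock.

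Counted over the list, 4 of 10 members (Areg, Ereg, Hbegf and Adam8) had all FACS-only values above all Pre-FACS values, as 5.81% of genes did. The median difference of the members was 0.07 beside 0.00 over all genes, and that of the 4 ligands was 0.35. Between Pre-enriched and Pre-FACS cells 0 members were called by limma, and 0.0493% of genes were (0.0164% higher and 0.0329% lower). Between Mock and Pre-FACS cells 0 members were called, and 0.00822% of genes were. Comparisons among Mock, FACS-only and Pre-enriched cells called 0 members and 0.0% of genes. The list of members was set with these results known, so nothing is read from their share against that of all genes.

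The wider pathway gave no call in any comparison of conditions. It comprised 71 tested genes, namely 5 other ligands and receptors, 12 genes of shedding and its regulators, 14 of adaptors and receptor turnover, 13 of RAS-MAPK, 8 of PI3K-AKT and 19 MAPK targets and feedback genes. In the test over 4 conditions Epha2, a receptor tyrosine kinase induced by MAPK signaling, came nearest with an adjusted p of 0.366. Its level was 199 ± 4.20 TPM (SD, n = 3) in Pre-FACS and 237 ± 14.1 TPM in FACS-only cells. Ier3, an early response gene (adjusted p = 0.404), and Mapk3, which encodes ERK1 (0.435), came next. Between FACS-only and Pre-FACS cells, 8 of the 19 MAPK targets and feedback genes had an unadjusted p under 0.05, with 0 called (lowest adjusted p = 0.0982) and a median log2 difference of 0.14. Over all genes 6.96% had an unadjusted p under 0.05 in this comparison.

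In the input series some libraries stood apart from their labels. The libraries labelled single cells 6 and 9, 10-cell pools 5 and 12 and 100-cell pools 1 to 3 resembled each other closely, with Pearson's r across genes of log2(TPM + 1) between 0.967 and 0.996 in their 21 pairs. Each had 11223 to 11549 genes at 1 TPM or more. In contrast, the other 9 single cells correlated with one another at 0.537 to 0.730 and had 3919 to 8598 such genes. Counts over single cells are therefore given with and without cells 6 and 9. Tabulated genes held 54.2% to 99.99% of the TPM total of a library in single cells and 93.5% or more in the pools and bulk RNA.

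In bulk RNA, Areg was the highest ligand, at 273 and 250 TPM in replicates 1 and 2. Ereg followed at 110 and 117 TPM, Hbegf at 93.4 and 89.0 TPM and Tgfa at 65.1 and 69.3 TPM. This order within a library differed from that of the processing experiment, where Hbegf was highest in every library. Egfr was at 45.0 and 40.9 TPM, Erbb2 at 47.8 and 46.0 TPM and Erbb3 at 55.3 and 52.0 TPM. Thus the receptors lay close together here, whereas Erbb2 exceeded Egfr in all 12 processing libraries. Adam8 had 54.9 and 54.1 TPM, Adam10 113 and 95.05 TPM and Adam17 98.8 and 102 TPM. The tables were normalized separately and no test was run across them, and the part of gene length in these orders was not tested.

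Areg was above 0 in 9 of 11 single cells. Its level was 368 TPM in single cell 1, 930 in cell 2, 225 in cell 4 and 273 in cell 5. It was 48.9 TPM in cell 7, 76.7 in cell 8 and 52.8 in cell 10, and it was listed at 0 in cells 3 and 11. The libraries labelled single cells 6 and 9 had 284 and 360 TPM, within the range of the pools. The coefficient of variation was 113% over 11 cells and 135% without cells 6 and 9, beside 42.4% over the 12 10-cell pools and 15.9% over the 6 100-cell pools. The median over 3007 genes of bulk levels like those of the other 9 members was 96.0%, and 112% without cells 6 and 9. Here a listed 0 may be a failed detection: of these 3007 genes, the median single cell listed 21.1% at 0 (24.5% without cells 6 and 9).

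Hbegf was found in both cells that listed Areg at 0. Cell 3, with Areg at 0, had 136 TPM of Ereg and 137 TPM of Hbegf, and cell 11 had 44.8 TPM of Hbegf with Ereg and Tgfa at 0. Hbegf was the only member above 1 TPM in all 11 cells, from 9.99 to 258 TPM with a median of 124 (137 without cells 6 and 9). Ereg reached 1 TPM in 8 of 11 cells (6 of 9 without cells 6 and 9) and Tgfa in 7 of 11 (5 of 9). Areg was the highest ligand in 7 of 11 cells (5 of 9 without cells 6 and 9) and Hbegf in the other 4.

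Erbb3, Adam8 and Erbb2 were the members most often listed at 0 in single cells. Over the 3007 genes of like bulk level, the median gene was listed at 0 in 2 of 11 cells. Erbb3 and Adam8 were each at 0 in 7 of 11 cells and Erbb2 in 5, none of them cell 6 or 9, and each of these 3 genes reached 1 TPM in 4 of 11 cells and in 2 of 9 without cells 6 and 9. The cells with 1 TPM or more of Erbb3 were cells 1, 4, 6 and 9, at 5.79, 14.3, 2.77 and 1.27 TPM. The same cells had 6.71, 31.1, 23.0 and 15.1 TPM of Adam8. Egfr was listed at 0 in cells 2, 8 and 11, near the median of genes of like bulk level, and reached 19.8 TPM in cell 5. Adam10 was listed at 0 in 1 cell and Adam17 in 1, and both were found together at 1 TPM or more in 8 of 11 cells (6 of 9 without cells 6 and 9). At least 1 TPM was reached by 3 to 10 members in a single cell (median 6, and 3 to 9 without cells 6 and 9), whereas 10-cell pools had 8 to 10, 100-cell pools 8 to 10 and both bulk libraries all 10.

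**Figure D3:**
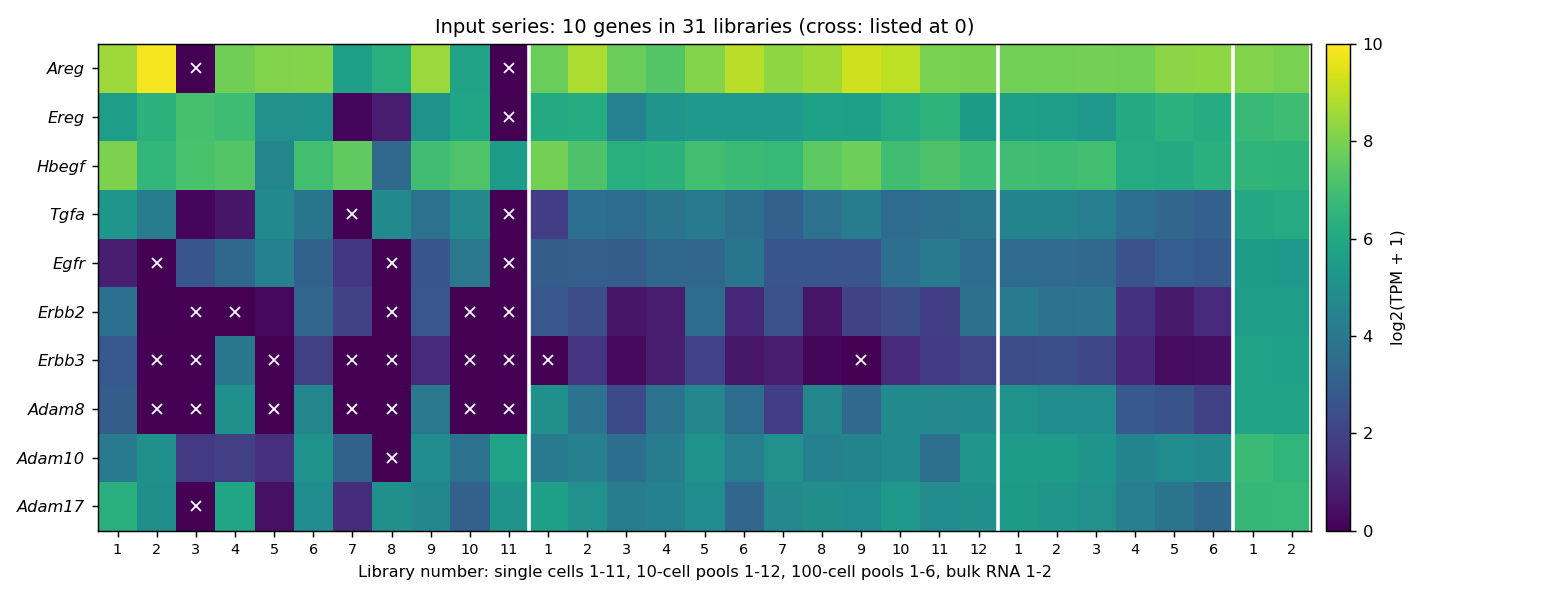
Level of the 10 genes (rows, color as log2(TPM + 1)) in the 31 libraries of the input series (columns, grouped as 11 single cells, 12 pools of 10 cells, 6 pools of 100 cells and 2 bulk RNA libraries), with a cross where a gene is listed at 0. Crosses are frequent for Erbb2, Erbb3 and Adam8 in single cells, and the bulk RNA columns are higher than the pools for 8 of the 10 genes.

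Pools held less transcript of the receptors than bulk RNA. Erbb3 lay between 0.0 and 3.27 TPM in the 12 10-cell pools (median 0.778) and between 0.256 and 4.38 TPM in the 6 100-cell pools, against 52.0 and 55.3 TPM in bulk RNA. No pool came near the bulk values. The ratio of means was 45.2 for bulk RNA over 10-cell pools and 23.4 over 100-cell pools. On the log2(TPM + 1) scale the difference from bulk RNA was -4.83 ± 0.61 in 10-cell pools (limma, adjusted p = 2.53e-05) and -4.30 ± 0.65 in 100-cell pools (0.000271). Across all genes the median difference was -0.86 and -0.79, so Erbb3 lay at -3.97 and -3.51 relative to it, and only 0.0325% and 0.0406% of genes had a lower difference.

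Erbb2 ranged from 0.482 to 11.9 TPM in 10-cell pools, from 0.642 to 16.04 TPM in 100-cell pools and from 46.0 to 47.8 TPM in bulk RNA. It differed from bulk RNA by -3.56 ± 0.86 (adjusted p = 0.00326) and -3.08 ± 0.92 (0.0167), and 1.32% and 1.81% of genes had a lower difference. With a pseudocount of 0.1 the difference in 100-cell pools did not pass (0.0532). Egfr ranged from 5.19 to 16.9 TPM and from 4.96 to 10.4 TPM in the pools, with differences of -2.23 ± 0.42 (adjusted p = 0.000558) and -2.32 ± 0.44 (0.00130). The pools of neither size overlapped bulk RNA for any of the 3 receptors.

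Areg and Hbegf behaved differently from the receptors. Areg had 158 to 619 TPM in 10-cell pools, with a median of 299, and 230 to 317 TPM in 100-cell pools, so that both enclosed the bulk values of 250 and 273. Its log2 difference from bulk RNA was 0.28 ± 0.36 in 10-cell pools (adjusted p = 0.544) and -0.02 ± 0.39 in 100-cell pools (0.969). Hbegf had 78.9 to 236 TPM in 10-cell pools and 67.9 to 123 TPM in 100-cell pools around bulk values of 89.0 and 93.4, with differences of 0.53 ± 0.33 (adjusted p = 0.210) and 0.04 ± 0.36 (0.942). Relative to the median of all genes, Areg lay 1.14 and 0.76 higher and Hbegf 1.38 and 0.82 higher. Genes of 55 to 2632 exon bases, among them Areg, had medians of 0.06 in 10-cell and 0.16 in 100-cell pools. The differences of Areg lay within their SE of these medians. Genes of 4275 to 6618 bases, among them Hbegf, had medians of -1.25 and -1.21. Quantile normalization, which moved the median difference of all genes to 0.13 and 0.05, gave Hbegf a difference of 0.91 ± 0.29 in 10-cell pools that passed (adjusted p = 0.0206).

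Tgfa and Ereg were lower in pools. Tgfa ranged from 2.51 to 17.5 TPM in 10-cell pools and from 7.46 to 21.99 TPM in 100-cell pools, against 65.1 and 69.3 TPM in bulk RNA. It differed by -2.52 ± 0.48 (adjusted p = 0.000661) and -2.20 ± 0.51 (0.00437). Ereg had 20.6 to 90.3 TPM and 39.7 to 82.5 TPM in the pools, below the 110 and 117 TPM of bulk RNA. Its difference of -1.21 ± 0.38 in 10-cell pools passed (adjusted p = 0.0159) and that of -0.95 ± 0.40 in 100-cell pools did not (0.0717), and relative to the median of all genes they were -0.35 and -0.17. Without 10-cell pool 3 the latter passed (0.0409). After quantile normalization the difference of Ereg in 10-cell pools no longer passed (adjusted p = 0.0969).

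Of the proteases, Adam10 had 11.1 to 37.8 TPM in 10-cell pools and 21.5 to 45.2 TPM in 100-cell pools, against 95.05 and 113 TPM in bulk RNA. Its difference was -2.25 ± 0.38 (adjusted p = 0.000280) and -1.66 ± 0.41 (0.00609). Adam17 differed by -1.89 ± 0.49 (0.00528) and -2.11 ± 0.53 (0.00643). Adam8 ranged from 2.60 to 31.3 TPM and from 2.82 to 33.9 TPM in the pools, below the 54.1 and 54.9 TPM of bulk RNA. Despite this separation its differences of -1.87 ± 0.80 (adjusted p = 0.0660) and -2.11 ± 0.85 (0.0608) did not pass. They passed, at -1.87 (0.0265) and -3.36 (0.00156), when 100-cell pools 1 to 3 were left out. The difference in 100-cell pools also passed without any of 100-cell pools 1, 2 and 3 or 10-cell pool 7 alone (adjusted p between 0.0311 and 0.0418). Without 100-cell pools 4 to 6 the difference in 100-cell pools was -0.87 with an adjusted p of 0.573. In that setting the difference in 10-cell pools, at -1.87, passed as well (0.0236).

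**Figure D4:**
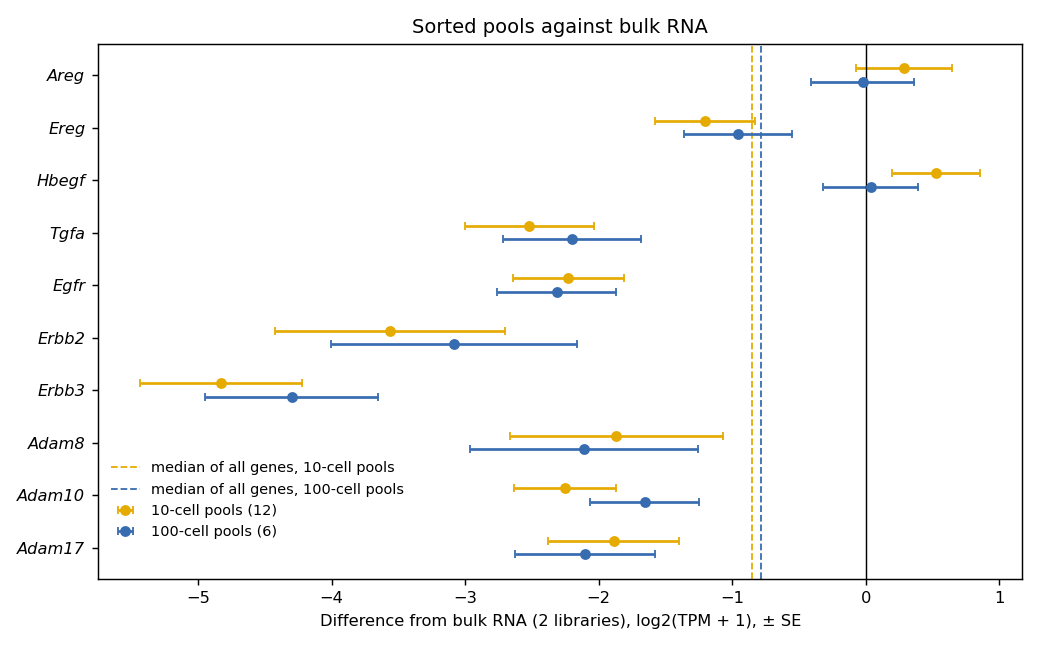
Difference of the 12 10-cell and 6 100-cell pools from the 2 bulk RNA libraries for each gene (horizontal axis, log2(TPM + 1), points with SE from limma), with the median over all tested genes as dashed lines at -0.86 and -0.79. Erbb3 lies farthest left at -4.83 and -4.30, and Areg and Hbegf lie to the right of both medians.

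In all, 7 of 10 members were called lower in 10-cell pools than in bulk RNA and 6 in 100-cell pools, where 31.9% and 24.9% of all genes were called lower. In either direction 39.4% and 32.2% of genes were called, with 7.46% and 7.3% higher in the pools and 0 members among these. Values of 8 members, all but Areg and Hbegf, lay below bulk RNA in every pool of either size, as they did for 39.2% of genes (40.5% for 10-cell and 52.5% for 100-cell pools alone). The median difference of the members was -2.06 and -2.11, beside -0.86 and -0.79 over all genes. These calls rest on 2 bulk libraries. Without either of them 4 members were called in 10-cell pools (Erbb3, Adam10, Tgfa and Egfr) and 2 in 100-cell pools (Erbb3 and Egfr). Without 10-cell pools 5 and 12 the counts were 7 and 6, and without these and 100-cell pools 1 to 3 they were 8 and 7. Without 100-cell pools 4 to 6 the counts were 8 and 2. In that setting Erbb3 and Egfr were called in 100-cell pools, while Erbb2 (adjusted p = 0.232), Tgfa (0.0650), Adam10 (0.0798) and Adam17 (0.0854) were not.

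Gene length moved with the difference from bulk RNA. Across 11854 genes with an annotated exon length, Spearman's rho between length and the difference was -0.488 for 10-cell and -0.487 for 100-cell pools, with genes sharing the same libraries. In 4 length classes of near equal size, from short to long, the median difference of all genes in 10-cell pools was 0.06, -0.75, -1.25 and -1.56. Areg was in the shortest class and Ereg in the next. Egfr and Adam17 were in the longest class. The other 6 members were in the class from 4275 to 6618 bases, which held both Hbegf at 0.53 and Erbb3 at -4.83. The part of length in the differences of the members was not tested.

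**Figure D5:**
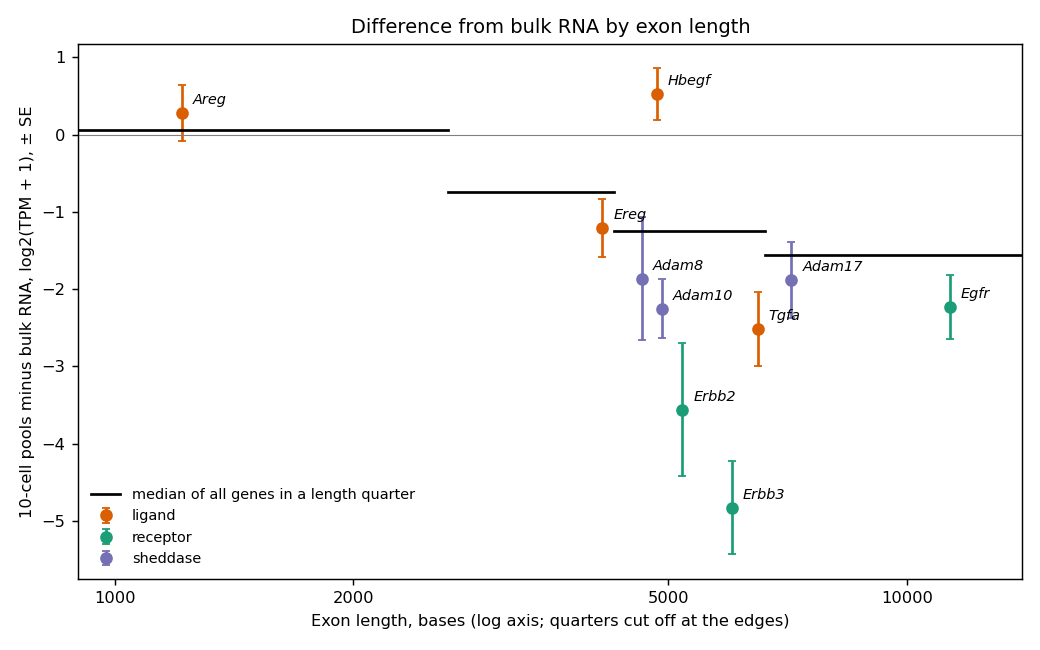
Difference of 10-cell pools from bulk RNA (vertical axis, log2(TPM + 1), with SE) against merged exon length in bases (log axis) for the 10 genes, colored by role, with the median over all genes of each of 4 length classes as horizontal lines. Lines fall from 0.06 to -1.56 with length. Areg lies within its SE of the line of its class, Hbegf lies above its line, and Erbb2 and Erbb3 lie farthest below.

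Pools of 10 and 100 cells were not told apart for any member in the fit of all pools. Limma called 0 members and 0.00811% of genes. The members of lowest p were Adam10, with a log2 difference of 0.60 ± 0.25, and Hbegf, with -0.49 ± 0.22. Standard errors of Erbb2 (0.56) and Adam8 (0.52) left room for larger differences. The 100-cell pools were themselves 2 sets. Pools 1 to 3 exceeded pools 4 to 6 without overlap in 8 members, as in 58.8% of genes, and fell below them in Ereg, as in 15.9%. Erbb2 was at 16.04, 12.3 and 13.0 TPM in pools 1 to 3 and at 1.75, 0.642 and 1.26 TPM in pools 4 to 6. Adam8 was at 33.9, 27.2 and 27.7 TPM and at 5.88, 5.07 and 2.82 TPM. Ereg had 50.5, 46.6 and 39.7 TPM in the former and 67.5, 82.5 and 73.0 TPM in the latter. Areg alone overlapped between the sets. Without pools 1 to 3, Hbegf was lower in 100-cell than in 10-cell pools, by -0.85 ± 0.26 with an adjusted p of 0.0290, in a fit that called 2175 genes. Without pools 4 to 6 the difference of Hbegf was -0.13 ± 0.26 (adjusted p = 0.773).

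Of 69 other genes of the pathway tested, 39 were called lower and 0 higher in 10-cell pools against bulk RNA, and 38 lower and 0 higher in 100-cell pools. Over all genes 31.9% and 24.9% were called lower. The median difference of the 69 was -1.68 and -1.64, beside -0.86 and -0.79 over all genes, and nothing particular to the pathway is read from it. By list, 7 of 13 genes of shedding and its regulators were lower in 10-cell pools, 11 of 14 of adaptors and receptor turnover, 4 of 12 of RAS-MAPK, 6 of 8 of PI3K-AKT, 10 of 19 MAPK targets and feedback genes and 1 of 3 other ligands and receptors. Furin, the protease that activates ADAM proteases, fell from 105 and 107 TPM in bulk RNA to 0.733 to 9.09 TPM in 10-cell pools, a difference of -4.56 ± 0.61 (adjusted p = 3.53e-05). Adam15, another ADAM protease, differed by -4.01 ± 1.11 (0.00796) and Dusp4, a phosphatase of ERK, by -3.75 ± 0.79 (0.00134). Between pools of 10 and 100 cells 0 of the 69 were called.

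Genes whose level followed each ligand over the 29 sorted libraries were described by Pearson's r of log2(TPM + 1), which across these libraries also reflects the share of genes detected. For Areg they were Epcam (0.942), Cldn7 (0.933), both epithelial adhesion genes, and Cast (0.933). For Ereg they were Vrk1 (0.957), Dcaf13 (0.952) and Alkbh3 (0.951). For Tgfa they were Cebpz (0.904), Sec23a (0.894) and Col18a1 (0.881). For Hbegf, the ligand found in every cell, r was lower, with Mecr (0.836), Vrk3 (0.830) and Zc3h7a (0.830). Within the 12 10-cell pools the same pairs had r between -0.29 and 0.67, with 0.51 for Areg and Epcam.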

How the data were processed

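Reads had been aligned by the authors to mm10 with STAR and counted per gene with featureCounts, upper-quartile normalized with EDASeq and converted to TPM by effective gene length. The deposited tables hold TPM, with 0 columns left unused here. TPM keeps no depth, so no counting errors are given, and tests stayed within a table. The gene annotation used for counting and the choice of the tabulated genes are not given in the sources used here.

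From these values log2(TPM + 1) was computed. A gene was kept if 3 or more libraries of a table had 1 TPM or more of it. Limma (version 3.58.1, R 4.3.3) was fitted with empirical Bayes and a mean-variance trend to the 12 processing libraries and to the 20 libraries of pools and bulk RNA, and p-values were adjusted by Benjamini-Hochberg and called under 0.05. Single cells were described without a test. The fits were tested on simulated data. Descriptions used Python 3.11.15 with pandas 2.3.3. Exon lengths and gene coordinates came from GENCODE vM21 and promoters from RefSeq. The members, the pathway lists, the marker lists and the tests were chosen with earlier results of these data known. Named are all members, the 3 pathway genes of lowest p over the conditions, the 3 of largest called difference between inputs and the 3 genes nearest to each ligand. Replicate numbers were not taken to pair the samples. A further allele of the mouse model is not reported here.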

Additional observations from a re-analysis of the deposited data

How the results depend on the processing

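No difference called in the full fits changed direction under any alternative. In the comparison of FACS-only with Pre-FACS the count of 1 called member became 0 without the trend, 0 with only the libraries of the 2 conditions and 3 with the replicate number as a block (Hbegf, adjusted p = 0.000496, Areg and Adam8), and ranged from 0 to 3 with a library left out. Over the 4 conditions the count of 1 became 0 without a filter, 0 after quantile normalization, 0 without the trend and 3 with the replicate block, and ranged from 0 to 1 with a library left out. For Pre-enriched against Pre-FACS the block gave 1 (Hbegf, 0.0437) in place of 0. In these settings all genes called numbered 15, 0 without the trend and 77 with the block between FACS-only and Pre-FACS, 6 and 37 (block) between Pre-enriched and Pre-FACS, and 13, 7 without a filter, 1 without the trend and 61 with the block over the 4 conditions. Between Mock and Pre-FACS 1 gene was called, 0 without the trend, 0 with only the libraries of the 2 conditions and 7 with the block, and the other pairs of conditions, at 0 genes in the full fit, gave at most 7.

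In the input series the replicate block gave 3 members in place of 7 for 10-cell pools against bulk RNA. For 100-cell pools it gave 0 in place of 6. Genes called were 778 and 0 in place of 4854 and 3970. Bulk RNA has only numbers 1 and 2, so the block sets it mainly against pools of those numbers. In this series 0 of 20 libraries were nearest to one of their own number, so nothing is read from these losses. Without 100-cell pools 4 to 6, 2 members and 875 genes were called against bulk RNA, and without 100-cell pools 1 to 3, 6863 genes. Between 100-cell and 10-cell pools, 1 member (Hbegf) and 2175 genes were called without 100-cell pools 1 to 3, 1 member and 1813 genes without these and 10-cell pools 5 and 12, and 82 genes without 10-cell pools 5 and 12 alone. With a pseudocount of 0.1, 2396 genes were called in 100-cell pools against bulk RNA. With a library left out, the counts of members ranged from 4 to 7 and from 2 to 7 against bulk RNA. The settings that leave out 10-cell pools 5 and 12 were chosen after seeing the data. The cause of these changes was not tested. Deviations of same-numbered libraries correlated at over 0.1 in 2 of 18 pairs of the processing experiment and 1 of 10 of the input series. In the processing experiment, however, 9 of 12 libraries were nearest to one of their own number. The median r there was 0.07 for the same number and -0.03 for other numbers. No label ties a number to a shared culture, so the main fits did not pair them. The paper, however, describes FACS-only as the same sample as Pre-enriched, Pre-FACS as an aliquot and Mock as an identical sample. It does not say whether libraries of equal number share a sample. A pairing in the processing experiment remains possible. Depth is unknown for TPM, so low levels of Erbb2, Erbb3 and Adam8 in single cells cannot be told from failed detection.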
